A study of Mus musculus with 18 samples.

Results

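NF-kB cytokines, chemokines and feedback inhibitors are 41 named mouse genes, of which 40 were listed among the 29112 genes of the count table. Members were the rows whose symbol was on the list, and they were followed through all 6 groups of the study. The list itself was chosen with earlier results of these data known. Shares of members set beside shares of all genes therefore describe this list and are no test of it. Ccl20 was not analysed here. Of the 40 genes, 38 had enough reads for the test and are among the 15074 genes tested. Csf2, which encodes a growth factor for granulocytes and macrophages, had 6 reads over all 18 libraries. Icam1, an adhesion molecule for leukocytes, had 301 reads, 218 of them in mimic replicate 2.

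NF-kB is a family of dimeric transcription factors that IkB proteins hold in the cytoplasm. Signals from cytokine and pattern-recognition receptors lead to the breakdown of IkB, and the freed dimers enter the nucleus and switch on cytokines, chemokines and adhesion molecules. They also switch on their own inhibitors, such as the IkB protein Nfkbia and the ubiquitin-editing enzyme Tnfaip3, which end the response. In heart muscle cells and fibroblasts the pathway is known for inflammatory signalling after injury and in metabolic stress.

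RNA was sequenced from cells labelled as HL-1, an immortalised line from mouse atrial cardiomyocytes, with 3 libraries in each of 6 groups. There were 4 groups of cells in high glucose that were transfected and harvested at 48 h. They received a miR-200a-3p inhibitor, a negative control for this inhibitor, a miR-200a-3p mimic or a negative control for this mimic. The remaining groups were high glucose without a miR-200a-3p reagent and vehicle, both labelled as genotype control. A mimic is a synthetic duplex that adds microRNA activity and an inhibitor blocks it. How much glucose was used, for how long, and whether untransfected cells met the transfection reagent is not given in the sources used here. No label states that replicate libraries are from separate cultures, and p-values therefore reflect only the spread among these samples, possibly a technical one.

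Library totals were 33655916 to 37928790 reads. Among defining markers of cardiomyocytes, 15 of 17 were listed, with a summed level of 35.6 to 99.4 CPM by library. Of these, 10 to 14 had reads in each library, while Nppa and Myh6, an atrial peptide and a cardiac myosin, were at or near 0. CPM is the read count scaled to a common library size with TMM factors. The 9 fibroblast markers, all listed, summed to 2346 to 2472 CPM in the inhibitor group, 2406 to 2514 CPM in the inhibitor control, 1072 to 1147 CPM in the mimic group and 1175 to 1198 CPM in the mimic control. In untransfected cells they summed to 10546 to 11986 CPM with high glucose, against 10033 to 10720 CPM with vehicle. The 18 macrophage markers, all listed, summed to 1729 CPM in mimic replicate 2, against 43.1 to 81.3 CPM in the other 17 libraries. Calls of members in the mimic group are therefore given with and without this library.

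The promoters of the members were read for kappa B words, the sites that NF-kB dimers bind. The members were picked by name as genes of the NF-kB response, so an excess of such words may be built into the list. The 250 bases upstream of the start of each gene's canonical transcript (GRCm39, GENCODE M39) were searched on both strands with overlaps allowed. The kappa B consensus used was GGG, then A or G, any base, A or T, C or T, C or T, and CC. A match to it was found in 13 of 40 members (32.5%), against 4.40% of 13041 protein-coding genes tested. The looser form, GGG followed by NNNNN and CC, was found in 25 of 40 members (62.5%), against 55.0% of those genes. The 40 include Csf2 and Icam1, which were not tested, and Icam1 has a consensus match. Over 17765 protein-coding genes of the count table, tested or not, the shares were 4.57% and 52.2%. In 21 members, Il1r1 among them, the canonical transcript starts inside the annotated gene, and in the other 19 it starts at the edge of the gene. Below are the windows of Cxcl1, Il6 and Nfkbia, 3 members with large differences between groups, and of Csf1, which had a match and differed little. Kappa B consensus matches are in capitals, and each window reads 5′ to 3′ along its gene.
Cxcl1 (chr5:91038844-91039093, plus strand): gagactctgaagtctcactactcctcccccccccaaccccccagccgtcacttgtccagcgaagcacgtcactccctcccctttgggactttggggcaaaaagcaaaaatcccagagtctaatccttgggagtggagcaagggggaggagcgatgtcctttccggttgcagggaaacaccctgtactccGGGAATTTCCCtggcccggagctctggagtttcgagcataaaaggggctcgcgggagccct
Il6 (chr5:30217862-30218111, plus strand): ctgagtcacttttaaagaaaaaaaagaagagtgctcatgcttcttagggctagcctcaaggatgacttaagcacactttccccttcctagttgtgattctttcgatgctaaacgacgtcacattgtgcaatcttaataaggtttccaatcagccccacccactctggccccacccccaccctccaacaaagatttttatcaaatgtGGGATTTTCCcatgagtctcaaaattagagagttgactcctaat
Nfkbia (chr12:55539433-55539682, minus strand): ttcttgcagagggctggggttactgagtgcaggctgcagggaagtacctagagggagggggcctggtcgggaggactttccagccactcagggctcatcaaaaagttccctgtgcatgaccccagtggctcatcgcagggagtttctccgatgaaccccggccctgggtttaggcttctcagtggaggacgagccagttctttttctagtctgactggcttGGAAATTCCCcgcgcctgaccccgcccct
Csf1 (chr3:107667807-107668056, minus strand): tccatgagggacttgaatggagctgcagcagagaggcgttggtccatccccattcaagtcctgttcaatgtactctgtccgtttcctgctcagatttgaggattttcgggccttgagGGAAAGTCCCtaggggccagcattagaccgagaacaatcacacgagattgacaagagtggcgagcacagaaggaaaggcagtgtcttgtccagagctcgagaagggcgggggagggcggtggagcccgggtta
The consensus match began 44 bases upstream of the start in Il6, 29 bases upstream in Nfkbia and 133 bases upstream in Csf1. The other members with a match were Cxcl5, Ptgs2, Relb, Nfkbie, Tnfaip3, Il1r1, Tlr2, Icam1 and Lcn2. Lif, Ccl2, Ccl7, Vcam1, Nfkbiz and Zc3h12a, which also had large differences between groups, had no consensus match in this window. A match is a description of the sequence, and binding was not measured.

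The reagent of the study was set beside the members through its seed, bases 2 to 8 of the microRNA, which pair with messenger RNAs and are in capitals here. The mature sequence is that of the RefSeq table (GRCm38.p6).
miR-200a-3p: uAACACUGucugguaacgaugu
Cxcl12 site (chr6:117155613-117155620, plus strand, exon 4 of 4): ggtctgaagtCAGTGTTAgggaagggcc
Tlr4 site (chr4:66760484-66760491, plus strand, exon 3 of 3): gtcacagagtCAGTGTTAaaaataattt
Capitals in the Cxcl12 and Tlr4 lines mark the site that matches the seed over 8 bases in the 3′ UTR, with 10 bases on each side. A seed match of 7 or 8 bases was found in 10 of 40 members (25.0%), against 27.6% of 12900 genes tested with an annotated 3′ UTR. Csf2 and Icam1, which were not tested, are among the 40 and have no seed match. Matches of 8 bases were found in Cxcl12 and Tlr4 alone among the members. The other members with a match were Lif, Il15, Cxcl16, Cx3cl1, Tnfaip3, Birc3, Il1r1 and Sod2.

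Across the 6 groups, the members were separated most by transfection. In 24 of the 38 members tested (63.2%), all 12 transfected libraries lay below all 6 untransfected libraries, while 25.3% of all genes tested did so. Tnfaip2 and Tnfaip6 (5.26% of the members) had all transfected libraries above, against 22.4% of all genes tested. Without mimic replicate 2, Ptges and Tlr2 also lay wholly below. Of 40 members, 20 had their highest group mean in high glucose and 9 in vehicle, counts for which no share over all genes was taken. Transfection, its reagent and any difference in culture or sequencing between these groups cannot be told apart, and the summed level of fibroblast markers moved with them. The part of those markers in the result was not tested. In bulk RNA, fewer cells of a type and less RNA per cell cannot be told apart either.

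**Figure D1:**
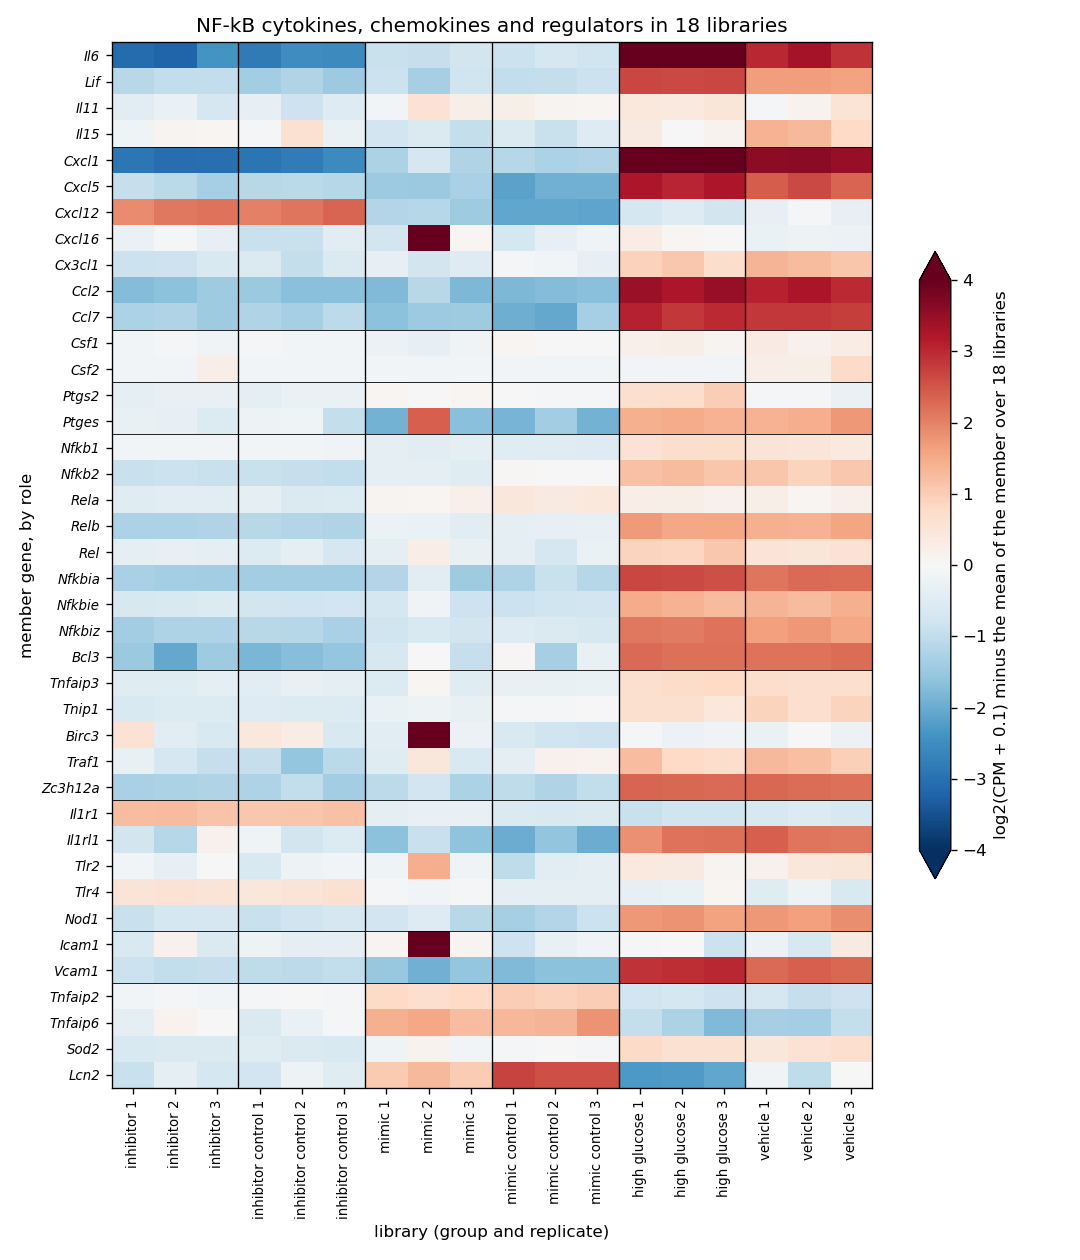
Level of 40 members (rows, ordered by role) in 18 libraries (columns), as log2(CPM + 0.1) minus the mean of the member over the libraries, with red above and blue below that mean. Most rows are red in the 6 high glucose and vehicle columns, and mimic replicate 2 stands out in Cxcl16, Birc3, Icam1 and Ptges.

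Levels of different members were compared per transcript length, as the deposited FPKM. The neutrophil attractant Cxcl1 led in high glucose at 347 FPKM and in vehicle at 190 FPKM, and Nfkbia and the A20-binding protein Tnip1 were next in both groups. In all 4 transfected groups the first place went to Tnfaip2, a TNF-induced protein of membrane protrusions. Its mean was 69.4 FPKM in the inhibitor group, 70.8 FPKM in the inhibitor control, 120 FPKM in the mimic group and 131 FPKM in the mimic control, against 44.2 FPKM in high glucose and 43.3 FPKM in vehicle. Csf1, the macrophage growth factor, had means of 33.99 to 51.8 FPKM over the 6 groups.

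High glucose was compared with vehicle to see how the members respond in untransfected cells. The cytokines Il6 and Lif, the chemokines Cxcl1, Cxcl5 and Ccl2, the cyclooxygenase Ptgs2 and the adhesion molecule Vcam1 were higher in high glucose, by up to 2.02-fold for Lif. So were 5 of 9 genes of the NF-kB and IkB family, while Il15 and Lcn2 were lower. edgeR's quasi-likelihood test with Benjamini-Hochberg adjustment called 13 of 38 members higher, where 12% of all genes were called higher. It called 5 members lower, where 12.2% of all genes were. The median change was 0.05 over the members and -0.00 over all genes on the log2 scale. The 6 epithelial markers, all listed, summed to 9.10 to 9.47 CPM in high glucose, against 26.3 to 28.4 CPM in vehicle, and 1 of them was at 0 in high glucose and 2 in vehicle. The 18 macrophage markers summed to 59.0 to 63.3 CPM in high glucose, against 68.6 to 75.9 CPM in vehicle. The part of these markers in the result was not tested.

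Among the cytokines, Il6, which signals through gp130, had 47.1, 47.1 and 53.1 CPM in high glucose, against 23.3, 28.9 and 21.6 CPM in vehicle. Its relative Lif had 31.5, 30.9 and 31.4 CPM in high glucose, against 15.8, 15.6 and 15.2 CPM in vehicle. The groups did not overlap in either gene, and the log2 change was 0.996 ± 0.0937 (SE) for Il6 (adjusted p = 2.15e-07 in edgeR's quasi-likelihood test) and 1.01 ± 0.0790 for Lif (adjusted p = 1.95e-08). Il15, a growth factor of natural killer cells, fell to 0.309 ± 0.0552 CPM in high glucose, against 0.725 ± 0.164 CPM in vehicle (SD, n = 3 each), on 9 to 13 and 19 to 31 reads per library. Il11, another gp130 cytokine, was near the same low level, at 0.542 ± 0.0242 CPM in high glucose, against 0.457 ± 0.124 CPM in vehicle, and was not called.

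Among the chemokines, Cxcl1 had 685, 647 and 610 CPM in high glucose, against 358, 363 and 334 CPM in vehicle. Cxcl5, a second ligand of the neutrophil receptor Cxcr2, had 74.0, 65.7 and 73.8 CPM in high glucose, against 42.2, 49.0 and 39.8 CPM in vehicle. Both rose with no overlap between the groups, by 0.88 ± 0.0884 and 0.70 ± 0.0770 on the log2 scale. The monocyte attractant Ccl2 had 44.3, 38.4 and 45.2 CPM in high glucose, against 33.96, 38.6 and 32.2 CPM in vehicle. Its groups overlapped, and its rise of 0.29 ± 0.0913 passed the threshold at an adjusted p of 0.0267. Its neighbour Ccl7 was at 27.9 ± 2.39 CPM in high glucose, against 25.1 ± 0.855 CPM in vehicle and was not called. Cx3cl1, the membrane-bound fractalkine, fell by 0.35 ± 0.122 on the log2 scale. Cxcl12, a ligand of Cxcr4 made by stromal cells, had 0.863 ± 0.0790 CPM in high glucose, against 1.18 ± 0.142 CPM in vehicle and was not called, as was Cxcl16, which stayed under 0.5 CPM in both groups.

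Ptgs2, the inducible cyclooxygenase, had 130, 136 and 165 CPM in high glucose, against 79.2, 80.2 and 68.9 CPM in vehicle. Vcam1, which binds leukocyte integrins, had 202, 208 and 219 CPM in high glucose, against 131, 141 and 133 CPM in vehicle. Neither gene overlapped between the groups, with log2 changes of 0.92 ± 0.0762 and 0.64 ± 0.0606. Ptges, the microsomal prostaglandin E synthase that acts after Ptgs2, was at 3.68 ± 0.123 CPM in high glucose, against 3.98 ± 0.513 CPM in vehicle and was not called.

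In the NF-kB and IkB family, Nfkbiz, a nuclear IkB protein needed for Il6 induction, had 115, 112 and 122 CPM in high glucose, against 84.3, 89.9 and 77.8 CPM in vehicle. Nfkbia, the classic inhibitor of NF-kB, had 134, 132 and 126 CPM in high glucose, against 92.5, 101 and 100 CPM in vehicle. Rel, a transactivating subunit, had 8.22, 8.15 and 9.36 CPM in high glucose, against 6.55, 6.22 and 6.57 CPM in vehicle. All 3 genes were higher in high glucose without overlap, by 0.47 ± 0.0606, 0.42 ± 0.122 and 0.41 ± 0.132 on the log2 scale. The precursor subunits Nfkb1 and Nfkb2 rose by 0.20 ± 0.0428 and 0.15 ± 0.0529. Rela and Relb, the other transactivating subunits, and the IkB proteins Nfkbie and Bcl3 were not called, with log2 changes of 0.03 to 0.14.

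No feedback regulator outside that family was called higher. Tnip1 had 248, 247 and 212 CPM in high glucose, against 293, 251 and 294 CPM in vehicle, and fell by 0.25 ± 0.0595 on the log2 scale. The other 4, namely Tnfaip3, the RNase Zc3h12a, the ubiquitin ligase Birc3 and the adaptor Traf1, were not called, with log2 changes of -0.25 to 0.06. Of the receptors, Tlr4, which senses lipopolysaccharide, rose by 0.26 ± 0.0893 with overlapping groups, and Il1r1, the interleukin-1 receptor, fell by 0.21 ± 0.0557. Tlr2, the interleukin-33 receptor Il1rl1 and the peptidoglycan sensor Nod1 were not called. Lcn2, the iron-binding lipocalin, fell to 0.170, 0.173 and 0.216 CPM in high glucose, against 1.09, 0.553 and 1.25 CPM in vehicle, on 6 to 8 and 21 to 44 reads per library. This was the largest change among the members, -2.34 ± 0.306 on the log2 scale (adjusted p = 1.12e-05). Tnfaip2, the hyaluronan-binding Tnfaip6 and the mitochondrial superoxide dismutase Sod2 were not called. The kappa B match shown above for Csf1 stood beside a change of -0.09 ± 0.0514, which was not called.

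Calls of the smaller changes depended on which libraries entered the fit and on the method. Adjusted p-values are from edgeR's quasi-likelihood test unless another method is named. Nfkbia missed the threshold without vehicle replicate 1 (log2 0.38, adjusted p = 0.0735) and in DESeq2 (log2 0.42, adjusted p = 0.0748), and had an adjusted p of 3.4e-06 without mimic replicate 2. Ccl2 missed it without vehicle replicate 1 (0.0944) or 3 (0.128) and without high glucose replicate 1 (0.0890) or 3 (0.111). Rel missed it without vehicle replicate 1 (0.0633), 2 (0.0757) or 3 (0.0608) and without high glucose replicate 3 (0.116), with log2 changes of 0.35 to 0.43. Tlr4 missed it without vehicle replicate 1 (0.121) or 3 (0.199) and without high glucose replicate 3 (0.278). Nfkb2 missed it without vehicle replicate 2 (0.221) and without high glucose replicate 1 (0.0631) or 2 (0.182). Cx3cl1 missed it without vehicle replicate 1 (0.168) or 2 (0.102) and without high glucose replicate 1 (0.0904) or 3 (0.215). In a fit of these 2 groups alone, Il1r1 (adjusted p = 0.0739), Nfkb2 (0.130) and Tlr4 (0.0938) missed it. Cx3cl1 also missed it in DESeq2 (0.0554). Ccl2, Nfkbia and Tlr4 missed it by limma on log2(FPKM + 1) and on log2(FPKM + 0.1), and Rel by limma on the latter. The other 11 of the 18 calls kept their side of the threshold in every setting run.

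**Figure D2:**
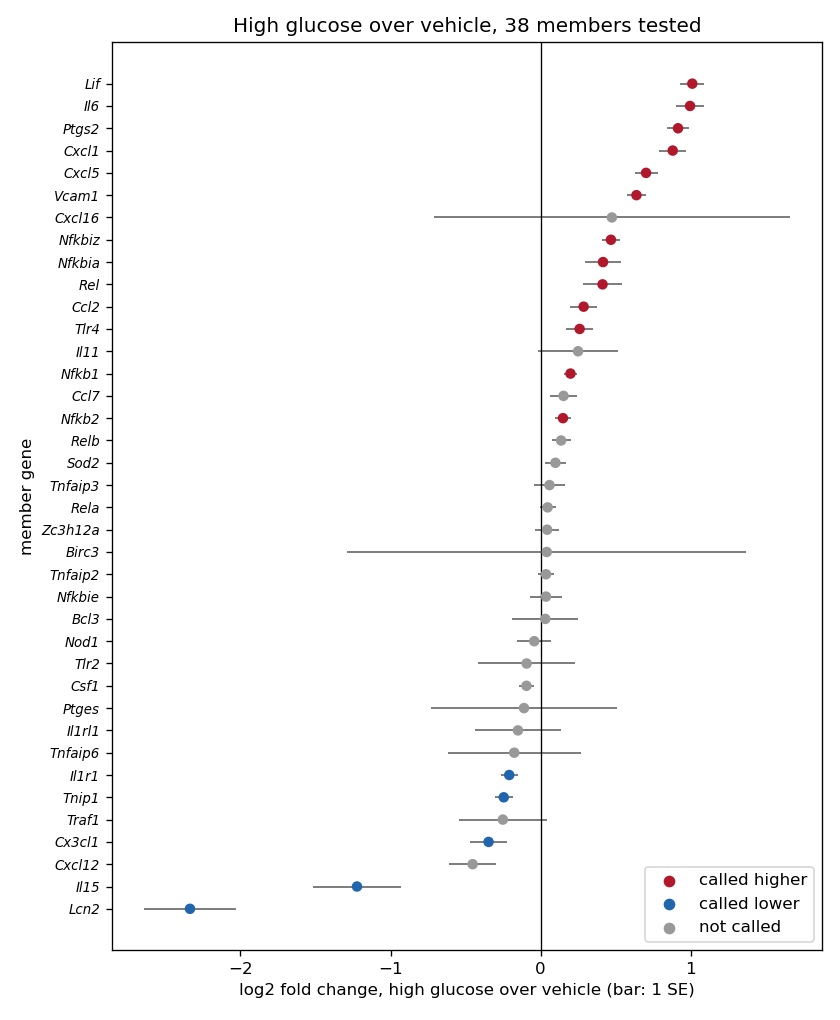
Log2 fold change of high glucose over vehicle for the 38 members tested, with bars of 1 SE. Red points were called higher (13), blue points lower (5) and grey points were not called, and Lcn2 lies farthest out at -2.34.

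Other genes of the pathway were taken from lists of kinases, regulators, receptors, ligands and targets. Of 27 kinases and adaptors upstream of NF-kB, 3 were higher in high glucose and 5 lower. The scaffold Ikbkg of the IkB kinase was 0.37 ± 0.0407 higher and the interleukin-1 receptor kinase Irak2 0.62 ± 0.0662 lower (log2, edgeR's quasi-likelihood test). Of 17 further negative regulators tested, 1 was higher and 3 lower, with the deubiquitinase Cyld higher by 0.29 ± 0.0656. Of 17 other cytokines and chemokines tested, the alarmin Il33 (0.92 ± 0.0732) and Il12a (1.23 ± 0.386) were higher and none was lower. Of 24 other NF-kB targets tested, 5 were higher, among them the collagenase Mmp13 (0.99 ± 0.187), and 2 lower. Of 20 cytokine receptors tested, 1 was higher and 7 lower, and the oncostatin M receptor Osmr fell by 0.73 ± 0.0619. The shares of these lists are to be read against 12% of all genes higher and 12.2% lower.

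The mimic was compared with its own negative control to see how added miR-200a-3p changed the members. Cxcl5, Cxcl12, Tlr4 and Il1r1 were higher with the mimic, and Lcn2, Nfkb2, Rela, Csf1, Tnip1 and Tnfaip2 were lower, with and without mimic replicate 2. The cytokines Il6, Lif, Il11 and Il15 were not called, with log2 changes of -0.19 to 0.15. edgeR's quasi-likelihood test called 8 of 38 members higher and 6 lower, where 15.8% of all genes were called higher and 18% lower. Without mimic replicate 2 it called 4 members higher and 7 lower, where 11.3% of 15308 genes tested were higher and 14.9% lower. In both directions together, 28.9% of the members were called without that library, against 26.2% of all genes. The count of calls was thus near the share over all genes and is not read as particular to the members. Of the 14 members called with all libraries, 10 were among the 11 called without that library. The median change was 0.07 over the members and 0.00 over all genes.

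Lcn2 moved most of these. It had 2.65, 3.15 and 2.54 CPM with the mimic, against 8.46, 7.88 and 7.76 CPM in the mimic control, a fall of 1.53 ± 0.192 on the log2 scale (adjusted p = 1.5e-05 in edgeR's quasi-likelihood test). The groups lay far apart. Without replicate 2 the value was -1.64.

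Cxcl12 had 0.570, 0.583 and 0.463 CPM with the mimic, against 0.259, 0.254 and 0.247 CPM in the mimic control. These levels rest on 16 to 20 and 8 to 9 reads per library. The groups did not overlap and the log2 change was 1.08 ± 0.216 (adjusted p = 0.00652), or 1.01 without replicate 2. Cxcl12 was no longer called by limma on log2(FPKM + 1), with a change of 0.05 (adjusted p = 0.333).

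Cxcl5 had 2.76, 2.74 and 3.12 CPM with the mimic, against 1.70, 1.97 and 2.01 CPM in the mimic control. Tlr4 had 25.3, 24.9 and 25.6 CPM with the mimic, against 20.1, 20.6 and 20.3 CPM in the mimic control. Il1r1 had 18.2, 19.0 and 18.9 CPM with the mimic, against 15.7, 15.4 and 15.5 CPM in the mimic control. Every mimic library of these 3 genes lay above every control library. Their log2 changes were 0.61 ± 0.136, 0.31 ± 0.0897 and 0.27 ± 0.0548, or 0.63, 0.31 and 0.25 without replicate 2. Cxcl12 and Tlr4, the members that carry the 8-base sites printed above, were among those higher with the mimic. Whether the microRNA acts on these sites was not tested.

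Nfkb2, the precursor of the p52 subunit, had 86.3, 84.8 and 80.7 CPM with the mimic, against 116, 113 and 114 CPM in the mimic control. Rela, the main transactivating subunit, had 93.6, 91.9 and 99.3 CPM with the mimic, against 120, 112 and 116 CPM in the mimic control. Both fell without overlap, by 0.45 ± 0.0546 and 0.29 ± 0.0542 on the log2 scale. Csf1 had 192, 178 and 202 CPM with the mimic, against 237, 221 and 221 CPM in the mimic control. Tnip1 had 132, 137 and 129 CPM with the mimic, against 153, 152 and 158 CPM in the mimic control. Tnfaip2 had 656, 601 and 653 CPM with the mimic, against 743, 711 and 736 CPM in the mimic control. These 3 genes also did not overlap, with falls of 0.25 ± 0.0518, 0.22 ± 0.0604 and 0.20 ± 0.0549, and they stayed below the threshold of 0.05 without replicate 2. Tnip1 was not called by limma on log2(FPKM + 1), with an adjusted p of 0.0586. None of the 6 members called lower with all libraries has a seed match in its annotated 3′ UTR, against a share of 27.6% over the genes tested. Tnfaip3, called lower without mimic replicate 2, has one. With 6 genes this count is too small to read, and the share among all genes called lower was not taken.

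Birc3, Cxcl16, Ptges and Tlr2 were called higher with all 3 mimic libraries and not without replicate 2. Cxcl16, a scavenger receptor and chemokine, had 0.171, 13.8 and 0.376 CPM with the mimic, against 0.173, 0.254 and 0.309 CPM in the mimic control. Birc3 had 0.114, 5.39 and 0.145 CPM with the mimic, against 0.0863, 0.0636 and 0.0618 CPM in the mimic control. Ptges had 0.285, 7.34 and 0.347 CPM with the mimic, against 0.288, 0.445 and 0.278 CPM in the mimic control. In each gene replicate 2 alone was high. Tlr2, a sensor of bacterial lipoproteins, had 1.48, 4.78 and 1.53 CPM with the mimic, against 0.777, 1.24 and 1.30 CPM in the mimic control. The log2 changes were 4.66 for Birc3, 4.28 for Cxcl16, 2.97 for Ptges and 1.23 for Tlr2 with all libraries. Without replicate 2 they were 0.82 (adjusted p = 0.444), 0.15 (0.843), -0.0918 (0.899) and 0.45 (0.138) in edgeR's quasi-likelihood test. Tlr2 was also not called without mimic control replicate 1 (1.02, adjusted p = 0.0556).

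Mimic replicate 2 exceeded all 17 other libraries in 6 of 40 members, namely these 4 with Icam1 (6.35 CPM) and Il11 (0.612 CPM). No share over all genes was taken for this count, so it is not read as particular to the members. The summed macrophage markers moved with mimic replicate 2, as given above, and their part in these values was not tested. Nfkbia was at 15.5 CPM in that library and at 9.23 and 7.81 CPM in mimic replicates 1 and 3. Tnfaip3 was at 29.6 CPM there and at 19.3 and 20.0 CPM in the others, against 22.9, 23.0 and 23.4 CPM in the mimic control. Without replicate 2, Tnfaip3 was called lower with the mimic, by 0.24 on the log2 scale (adjusted p = 0.00843).

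The other members were not called with the mimic. The attractants Cxcl1, Ccl2 and Ccl7 had log2 changes of 0.18 to 0.27, Ptgs2 and Vcam1 of 0.09 and 0.03, and Cx3cl1 of -0.37 (adjusted p = 0.0507 in edgeR's quasi-likelihood test). In the NF-kB and IkB family, Nfkb1, Relb, Rel, Nfkbia, Nfkbie, Nfkbiz and Bcl3 ranged from -0.13 to 0.31. These changes include mimic replicate 2. Cxcl1 had 18.7 CPM in that library and Ccl2 had 1.78 CPM. Their means in mimic replicates 1 and 3 were 12.6 and 1.08 CPM, against 12.9 and 1.12 CPM in the mimic control. Rel and Nfkbie had 5.27 and 5.24 CPM in replicate 2, and means of 3.42 and 3.39 CPM in replicates 1 and 3. Traf1, Zc3h12a, Nod1, Tnfaip6 and Sod2 ranged from -0.16 to 0.34. Il1rl1 had 1, 4 and 1 reads with the mimic, against 0, 1 and 0 reads in the mimic control.

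**Figure D3:**
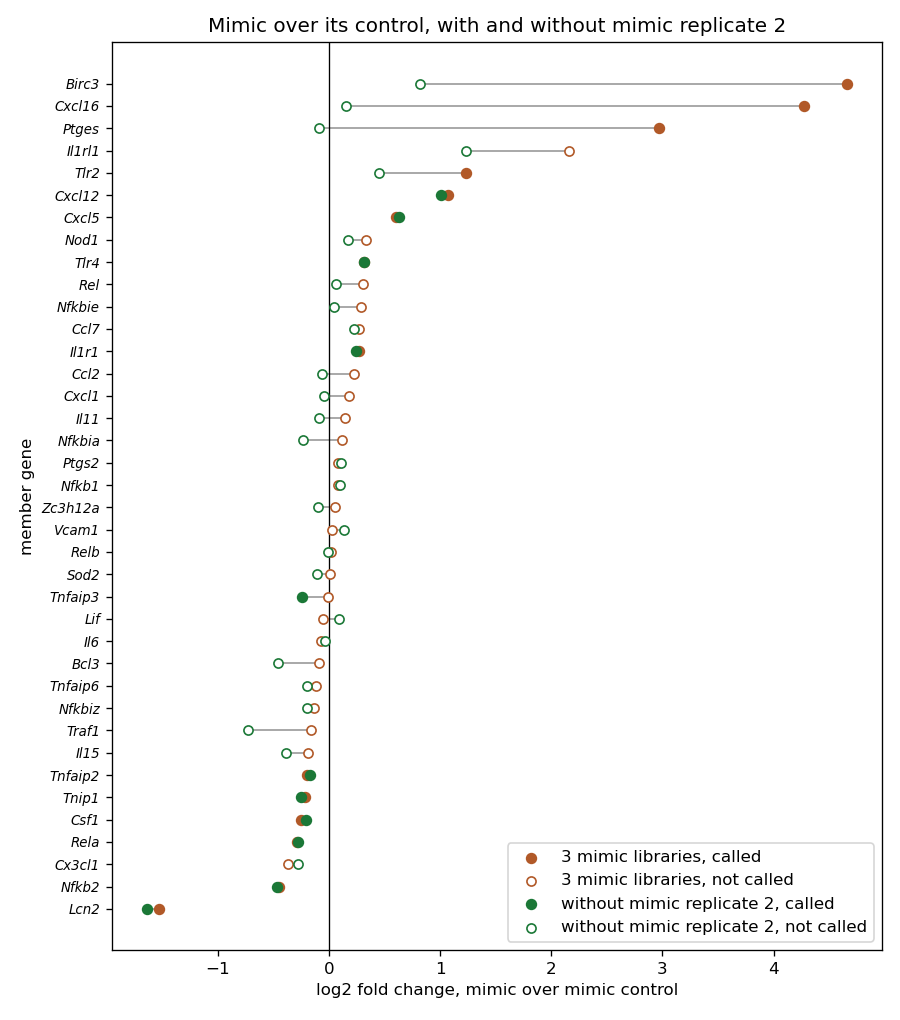
Log2 fold change of the mimic over its control for the 38 members tested, with all 3 mimic libraries (brown) and without mimic replicate 2 (green), where filled points were called. Birc3, Cxcl16, Ptges and Tlr2 move toward 0 without the library, and Lcn2, Nfkb2 and Cxcl12 keep their place.

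Among the other pathway genes, 8 of 27 kinases and adaptors were higher with the mimic and 6 lower, where 15.8% of all genes were higher and 18% lower. Leaving out mimic replicate 2, 5 were higher and 6 lower, where 11.3% and 14.9% of all genes were. The kinase Map3k8 had 1.25, 2.24 and 1.01 CPM with the mimic, against 0.863, 0.699 and 0.773 CPM in the mimic control. The adaptor Myd88 had 14.5, 15 and 13.9 CPM with the mimic, against 18.2, 20.1 and 17.4 CPM in the mimic control, and Traf2 had 21.2, 20.1 and 21.0 CPM with the mimic, against 28.6, 25.8 and 26.7 CPM. None of these groups overlapped, and the log2 changes were 0.94 ± 0.232, -0.36 ± 0.0621 and -0.38 ± 0.0568 in edgeR's quasi-likelihood test. Map3k8 was at 0.53 and not called (adjusted p = 0.0792) when that library was left out, while Myd88 and Traf2 were called lower at -0.40 and -0.37. Of 17 further negative regulators, 3 were higher and 2 lower with all libraries, and 1 was higher and 4 lower without mimic replicate 2. Of 24 other NF-kB targets, 8 were higher and 4 lower with all libraries, and 5 were higher and 4 lower without it. Saa3, an acute-phase target, reached 413 CPM in replicate 2 and 6.04 and 6.07 CPM in mimic replicates 1 and 3. Of 20 cytokine receptors, 3 were higher, led by the Lif receptor Lifr (0.61 ± 0.0785), and 4 lower. With that library left out, 2 receptors were higher, Lifr among them (0.61), and 3 lower.

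The inhibitor was compared with its own negative control to see what blocking miR-200a-3p did. No member was called in either direction by edgeR's quasi-likelihood test, where 0.0% of all genes were called higher and 0.0% lower. At an unadjusted p under 0.05 there were 447 genes and 1 member, Lif, and DESeq2 called 0 genes with 304 at an unadjusted p under 0.05. Lif had 2.18, 2.38 and 2.41 CPM with the inhibitor, against 1.77, 2.05 and 1.70 CPM in the inhibitor control (log2 0.33 ± 0.117, unadjusted p = 0.0152, adjusted p = 1). The 95% interval of the log2 change ran from -0.07 to 0.16 for Rela, -0.07 to 0.16 for Nfkb2, -0.12 to 0.10 for Csf1, -0.30 to 0.40 for Nfkbia and -0.57 to 0.10 for Cxcl1. For Il6, at 0.307 ± 0.132 CPM with the inhibitor and 0.378 ± 0.0601 CPM in the inhibitor control, it ran from -0.98 to 0.35. None of the 27 kinases, 17 negative regulators, 24 other targets or 20 receptors tested was called.

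An interaction test asked whether the mimic moved a member differently from the inhibitor, each against its own control. It was positive and called for Cxcl12 (1.19 ± 0.247, adjusted p = 0.0103) and Cxcl5 (0.61 ± 0.178, adjusted p = 0.0305) by edgeR's quasi-likelihood test. It was negative and called for Lcn2 (-1.36 ± 0.314), Nfkb2 (-0.50 ± 0.0781), Rela (-0.33 ± 0.0775) and Csf1 (-0.24 ± 0.0731). These are 2 members higher where 4.63% of all genes were, and 4 lower where 8.59% were. Of all genes called, 35.0% were higher, or 47.2% with upper-quartile scaling. In the inhibitor pair the same genes had log2 changes of -0.17 for Lcn2, 0.05 for Nfkb2, 0.04 for Rela, -0.01 for Csf1, -0.11 for Cxcl12 and -0.00 for Cxcl5. The calls for Lcn2, Nfkb2 and Rela held in every setting run. Without mimic replicate 2 the values were 1.12 for Cxcl12, 0.63 for Cxcl5, -1.46 for Lcn2, -0.51 for Nfkb2, -0.32 for Rela and -0.20 for Csf1.

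Leaving out 1 library ended the interaction call of Cxcl5 in 7 cases, with adjusted p of 0.0526 and 0.0759 without inhibitor replicates 2 and 3, 0.0630 and 0.0549 without inhibitor control replicates 2 and 3, 0.0503 and 0.0781 without mimic replicates 2 and 3, and 0.0950 without mimic control replicate 1. It ended that of Csf1 without inhibitor replicates 1, 2 and 3 (0.0696, 0.0831 and 0.0607), inhibitor control replicates 2 and 3 (0.0766 and 0.0736), mimic replicate 2 (0.0984) and mimic control replicates 1 and 3 (0.0991 and 0.0538). The count of members higher was 4 without mimic replicate 1 and 3 without mimic replicate 3. In both fits Ptges (adjusted p = 0.0199 and 0.0244 in edgeR's quasi-likelihood test) and Birc3 (0.0207 and 0.0244) were called. Cxcl5 was not called without mimic replicate 3. By limma, the interaction of Cxcl12 was not called on log2(FPKM + 1) (0.09, adjusted p = 0.225) or on log2(FPKM + 0.1) (0.42, adjusted p = 0.0734). That of Csf1 was called in neither limma fit, and that of Cxcl5 was not called in the former. With upper-quartile scaling Csf1 was not called either (adjusted p = 0.0554 in edgeR's quasi-likelihood test).

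The negative controls were set against untransfected high glucose to describe the separation of the members by transfection. Both controls share the 3 high glucose libraries with each other and with the comparison to vehicle, so the values stand side by side and their likeness is no result. In the inhibitor control, 6 of 38 members were called higher than in high glucose and 28 lower, where 40.1% of all genes were higher and 39.3% lower. In the mimic control, 5 members were called higher and 30 lower, where 39% of all genes were higher and 39.9% lower. The median change over the members was -1.57 in the inhibitor control and -1.18 in the mimic control, and over all genes it was 0.04 and 0.01. The confounding of transfection with culture and run, stated above, holds for every value here.

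Cxcl1 and Il6 fell by the largest fitted folds in the inhibitor control. Cxcl1 had 3.85, 4.21 and 4.97 CPM in the inhibitor control and 13.5, 12.4 and 12.9 CPM in the mimic control, against 610 to 685 CPM in high glucose. These are 149-fold and 50.1-fold lower levels. Il6 had 0.309, 0.421 and 0.404 CPM in the inhibitor control and 1.50, 1.72 and 1.58 CPM in the mimic control, against 47.1 to 53.1 CPM in high glucose. It was 129-fold and 30.7-fold lower (adjusted p = 9.37e-19 and 4.19e-18 in edgeR's quasi-likelihood test). Lif was 16.9-fold lower in the inhibitor control and 12.5-fold lower in the mimic control. All libraries of both controls lay below all of high glucose in these 3 genes.

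The monocyte attractants moved alike in size. Ccl2 had 1.35, 1.18 and 1.18 CPM in the inhibitor control and 1.06, 1.11 and 1.17 CPM in the mimic control, against 38.4 to 45.2 CPM in high glucose. Ccl7 was at 1.48 ± 0.165 CPM in the inhibitor control and 0.9752 ± 0.308 CPM in the mimic control, against 27.9 ± 2.39 CPM in high glucose. Cxcl5 was at 3.58 ± 0.0770 CPM in the inhibitor control and 1.89 ± 0.170 CPM in the mimic control, against 71.1 ± 4.74 CPM in high glucose (SD, n = 3 each). Each of these chemokines was at least 18 times lower in both controls by its fitted change, the smallest being 18.9-fold for Ccl7 in the inhibitor control. Vcam1 had 13.4, 12.9 and 13.5 CPM in the inhibitor control and 7.94, 8.55 and 8.65 CPM in the mimic control, against 202 to 219 CPM in high glucose.

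The inhibitors of NF-kB fell as well. Nfkbia had 8.04, 7.91 and 8.001 CPM in the inhibitor control and 9.002, 11.4 and 9.49 CPM in the mimic control, against 126 to 134 CPM in high glucose, 16.4-fold and 13.1-fold lower. Nfkbiz was 9.93-fold and 6.54-fold lower, Nfkbie 4.52-fold and 4.66-fold lower, Zc3h12a 11.6-fold and 10.55-fold lower, and Tnfaip3 2.13-fold and 2.01-fold lower in the inhibitor and mimic controls. Among the subunits, Relb had log2 changes of -2.79 and -1.95, Nfkb2 of -2.11 and -1.15, Rel of -1.50 and -1.40 and Nfkb1 of -0.78 and -1.15 in the inhibitor and mimic controls. Rela went opposite ways, at 66.2, 58.2 and 59.7 CPM in the inhibitor control and 120, 112 and 116 CPM in the mimic control, against 97.3 to 103 CPM in high glucose. Its rise of 0.20 ± 0.0541 in the mimic control was not called by limma on log2(FPKM + 1), where it was 0.03 (adjusted p = 0.540).

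Il1rl1 had 9, 5 and 6 reads in the inhibitor control and 0, 1 and 0 reads in the mimic control, against 46, 59 and 64 reads in high glucose. Bcl3, Nod1, Traf1, Cx3cl1, Ptgs2, Ptges, Sod2, Tnip1 and Csf1 were lower in both controls, by 0.17 to 4.45 on the log2 scale. Ptges was not called in the inhibitor control without its replicate 3 (adjusted p = 0.0638).

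A few members went the other way. Lcn2 had 0.675, 1.04 and 0.838 CPM in the inhibitor control and 8.46, 7.88 and 7.76 CPM in the mimic control, against 0.170 to 0.216 CPM in high glucose. Tnfaip6, which binds hyaluronan, had 0.253, 0.336 and 0.404 CPM in the inhibitor control and 1.21, 1.24 and 1.73 CPM in the mimic control, against 0.0541 to 0.170 CPM in high glucose. Tnfaip2 had 359, 366 and 353 CPM in the inhibitor control and 743, 711 and 736 CPM in the mimic control, against 212 to 227 CPM in high glucose. These 3 genes were above high glucose in all 6 control libraries, and all 6 changes were called. Il1r1 was higher too, with 48.8, 50.9 and 53.0 CPM in the inhibitor control and 15.7, 15.4 and 15.5 CPM in the mimic control, against 12.6 to 13.5 CPM in high glucose. Its rise in the mimic control, 0.24 ± 0.0561, was 0.05 and not called by limma on log2(FPKM + 1) (adjusted p = 0.314).

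Cxcl12 and Tlr4 were called in opposite directions. Cxcl12 had 6.02, 6.53 and 7.39 CPM in the inhibitor control and 0.259, 0.254 and 0.247 CPM in the mimic control, against 0.812 to 0.954 CPM in high glucose. Tlr4 had 36.9, 38.4 and 40.6 CPM in the inhibitor control and 20.1, 20.6 and 20.3 CPM in the mimic control, against 21.4 to 27.8 CPM in high glucose. The fall of Tlr4 in the mimic control, -0.23 ± 0.0898, was not called without high glucose replicate 3 (adjusted p = 0.278) or without mimic control replicate 1 (0.0776), 2 (0.0549) or 3 (0.0681). That of Tlr2, -0.92 ± 0.345, was not called without high glucose replicate 1 (0.0521) or mimic control replicate 1 (0.102). Il11 was lower in the inhibitor control, with a change of -1.25 ± 0.295 on the log2 scale, and Il15 was lower in the mimic control, at -1.21 ± 0.385. DESeq2 gave an adjusted p of 0.0624 for Il15. Cxcl16 and Birc3 were called in neither control, Il11 was not called in the mimic control, and Il15 and Tlr2 were not called in the inhibitor control. Without mimic replicate 2, Cxcl16 and Tlr2 were called lower in the inhibitor control (adjusted p = 0.00376 and 0.00261).

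**Figure D4:**
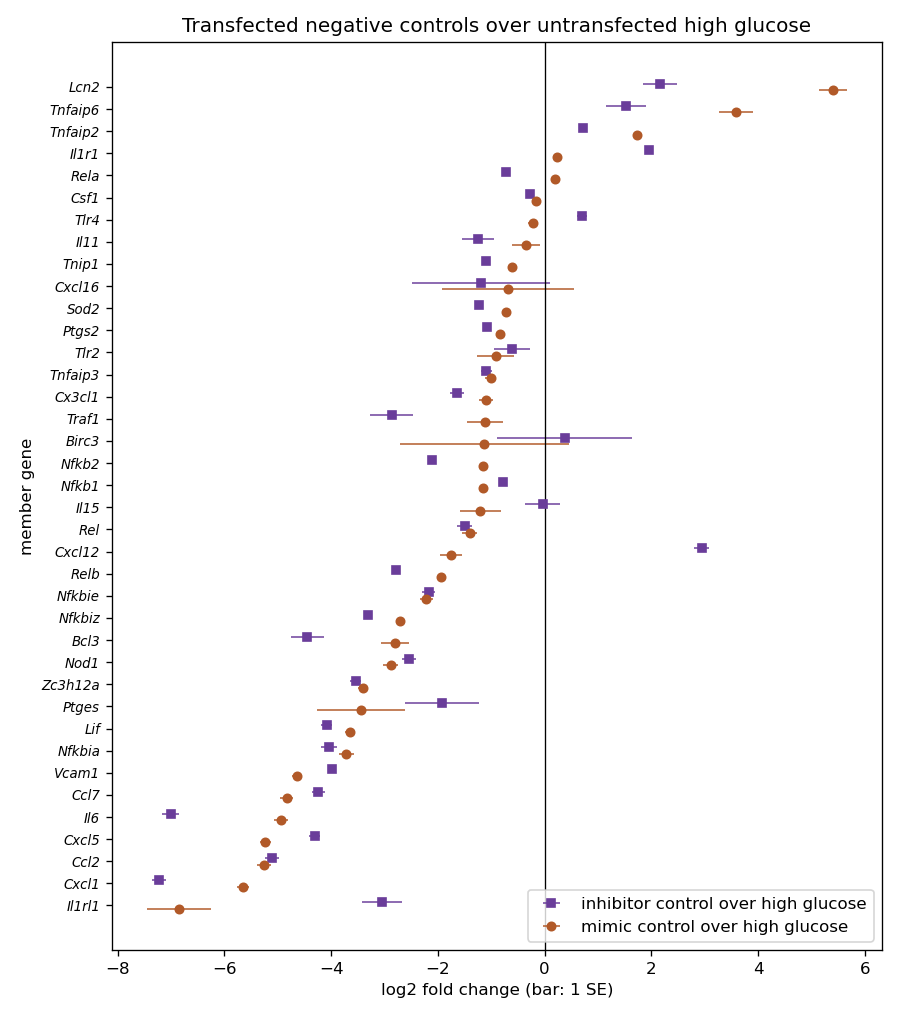
Log2 fold change of the inhibitor control (purple squares) and the mimic control (brown circles) over untransfected high glucose for the 38 members tested, with bars of 1 SE. Most points lie left of 0, down to -7.22 for Cxcl1 in the inhibitor control, Lcn2, Tnfaip6 and Tnfaip2 lie right of 0 in both, and the point of Il1rl1 in the mimic control rests on 1 read.

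The inhibitor control was set against the mimic control, since both are negative controls in high glucose. Il6, Cxcl1 and Lcn2 were lower in the inhibitor control and Cxcl12, Il1r1 and Tlr4 higher, with the values given above. Of 38 members, 9 were higher and 17 lower by edgeR's quasi-likelihood test, where 38.5% of all genes were higher and 35.7% lower. The median was -0.20 over the members and 0.04 over all genes. Cxcl12 was 25.9-fold higher, Il1r1 3.28-fold, Tlr4 1.90-fold and Cxcl5 1.90-fold higher. Lcn2 was 9.41-fold lower, Il6 4.19-fold, Tnfaip6 4.17-fold and Cxcl1 2.98-fold lower. Rela, Nfkb2 and Relb fell by 0.92 ± 0.0551, 0.97 ± 0.0554 and 0.84 ± 0.0793 on the log2 scale, and Nfkb1 rose by 0.37 ± 0.0449. These differences between negative controls were larger in fitted size than those of the mimic in Lcn2, Nfkb2, Rela, Il1r1, Tlr4 and Cxcl12. The 15 cardiomyocyte markers listed summed to 83.9 to 99.4 CPM in the inhibitor control, against 35.6 to 36.9 CPM in the mimic control, and the fibroblast markers to 2406 to 2514 CPM, against 1175 to 1198 CPM. Neither sum overlapped between the controls, and the part of these markers in the differences was not tested. Reagent, culture and run cannot be told apart here.

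Several of these calls hung on a library or a scale. Ptgs2, lower by 0.25 ± 0.0771, missed the threshold with upper-quartile scaling (adjusted p = 0.0727). Il11 missed it without inhibitor control replicate 2 (0.0802) and mimic control replicate 1 (0.0511), and Il15 without inhibitor control replicate 2 (0.185) and mimic control replicate 2 (0.0603). Without mimic replicate 2, Nfkbia (-0.34, adjusted p = 0.000774), Ptges (1.51, 1.76e-05), Birc3 (1.48, 0.0256) and Csf1 (-0.14, 0.0169) were called as well. Csf1 was also called without inhibitor control replicate 1 (0.0494) and mimic control replicates 2 (0.0290) and 3 (0.0291), and Nod1 without mimic control replicate 3 (0.0150).

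**Figure D5:**
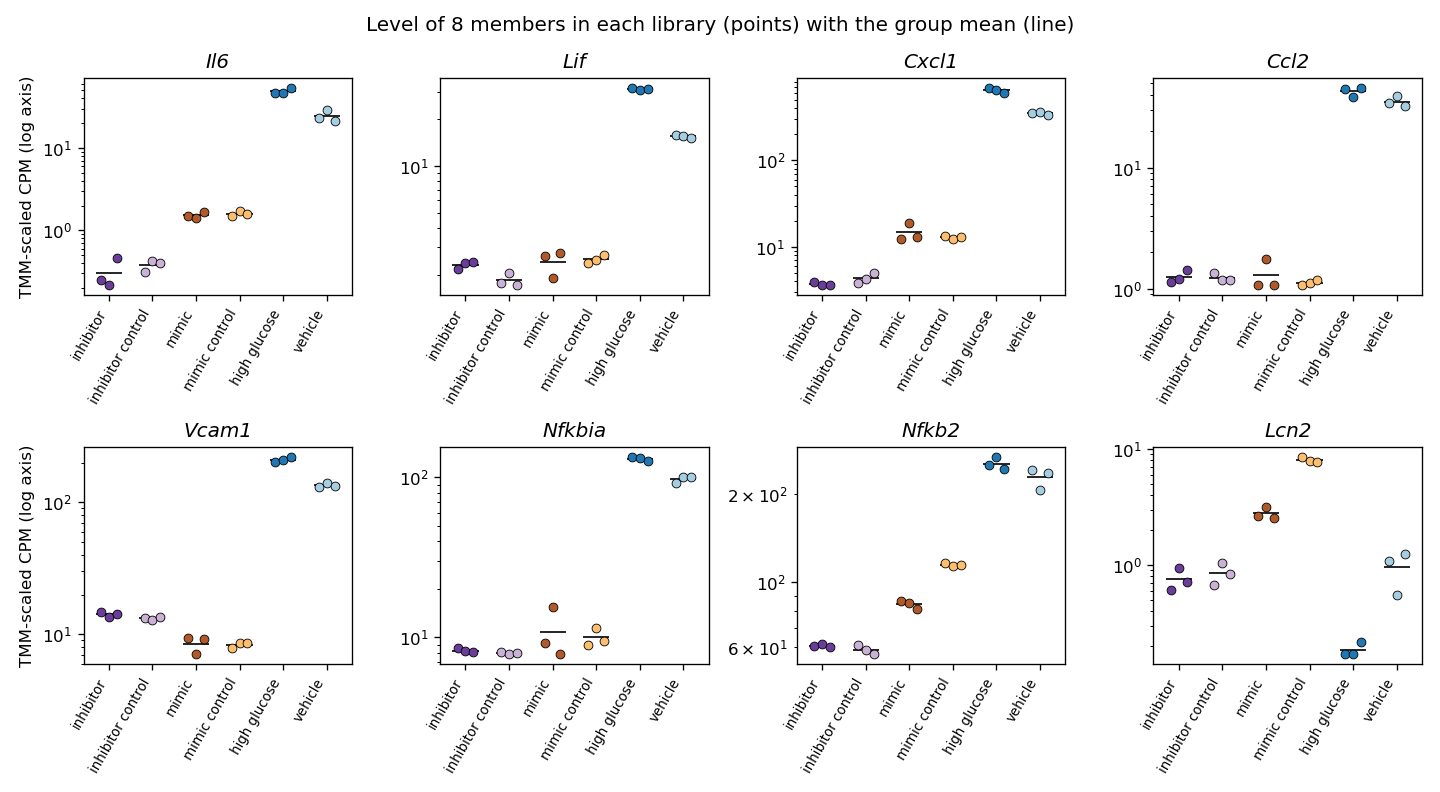
CPM (log axis) of 8 members in each of 18 libraries (points), with the mean of the 3 libraries of a group (line). Il6, Lif, Cxcl1, Ccl2, Vcam1 and Nfkbia lie highest in high glucose and vehicle, Nfkb2 is lower in the mimic than in the mimic control, and Lcn2 peaks at 7.76 to 8.46 CPM in the mimic control.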

How the data were processed

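Libraries came from a stranded mRNA kit and were read in pairs of 150 nt, per the labels' protocols. FASTX-Toolkit 0.0.13 did the trimming and HISAT2 the alignment to GRCm39, with up to 4 mismatches, and counting used reads with a unique position, per the labels' protocols. The authors deposited raw counts per gene and FPKM values. DESeq2 is listed in the submitters' processing notes with no task attached. Which counting program, annotation and strand setting were used is not given in the sources used here, so reads of overlapping or antisense genes may be shared.

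Deposited counts were filtered with filterByExpr (minimum count 10, minimum total 15), scaled by TMM and fitted with edgeR 4.0.16 (R 4.3.3) over all 18 libraries with 1 term per group and 12 residual degrees of freedom. Benjamini-Hochberg adjustment ran over 15074 genes, and genes with an adjusted p under 0.05 were called. A count of 0 allows up to 3 reads, for counting error only. Alternatives used DESeq2 1.42.0 and limma 3.58.1 on log2(FPKM + 1) and log2(FPKM + 0.1) of the deposited FPKM. Replicate libraries differed by 4.37 to 26.1 chi-square per degree of freedom, above sampling noise.

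The members and the lists were chosen with earlier results of these data known. Any member may be named. Values per library are given for called members with at least 1 CPM and no overlap, up to 8 in each direction, and for others where a result turns on them. Up to 4 called genes per comparison are named from the other lists. Gene identifiers of 28849 genes (99.1%), taken without their version, matched GENCODE M39. The mature microRNA came from RefSeq.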

Additional observations from a re-analysis of the deposited data

How the results depend on the processing

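With the mimic over its control, 8 members were higher, against 5 in DESeq2, 5 by limma on log2(FPKM + 1), 4 in a fit of those 2 groups alone and 4 to 10 with 1 library left out (4 without mimic replicate 2). The log2 change of Ptges ranged from -0.0918 (without mimic replicate 2, adjusted p = 0.899) to 3.49 (without mimic replicate 1). For the mimic control over high glucose, limma on log2(FPKM + 1) and on log2(FPKM + 0.1) gave 3 members higher, not 5. For the interaction, 2 members higher became 9 with no filter on low counts, 0 and 1 by limma with pseudocounts 1 and 0.1, and 1 to 4 with 1 library left out. The cause was not tested. Of all genes called in the interaction, 35.0% were higher, or 47.2% with upper-quartile scaling and 49.5% and 53.1% by limma. In the mimic comparison, 46.7% were higher, or 61.3% and 63.5% by limma. Upper-quartile scaling shifted the median of all genes to 0.11 (inhibitor control over high glucose) and 0.15 (inhibitor control over mimic control), and limma with pseudocount 0.1 to -0.12 (mimic control over high glucose) and 0.14 (inhibitor control over mimic control). Without a filter, 26 genes were called between inhibitor and inhibitor control, and 1 in a fit of those 2 groups.

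Shared replicate numbers showed no pairing of the libraries, since 3 of 45 same-numbered pairs had correlated deviations over 0.1 (-0.45 to 0.23). Differently numbered pairs ran from -0.26 to 0.43, the highest being vehicle replicate 2 with high glucose replicate 3. Links between libraries under other numbers were not tested. With a replicate block, high glucose over vehicle had 12 members higher and 5 lower (Nfkb2 adjusted p = 0.0514), and member counts in the other 6 comparisons were as without it. Depth limits Csf2, Icam1, Il1rl1, Birc3, Traf1 and Tnfaip6, with 0 to 2 reads in some libraries.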

Other observations

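Genes that act after the gp130 cytokines Il6 and Lif were also lower in the transfected controls. Of 17 genes of the gp130 and STAT3 response tested, 13 were lower and 3 higher than in high glucose in each control by edgeR's quasi-likelihood test, against 39.3% to 39.9% of all genes lower. Stat3, the transcription factor of this arm, had 65.4, 59.1 and 56.9 CPM in the inhibitor control and 137, 128 and 131 CPM in the mimic control, against 241, 252 and 247 CPM in high glucose. Its feedback inhibitor Socs3 had 16.96, 17.3 and 15.8 CPM in the inhibitor control and 32.96, 29.1 and 31.2 CPM in the mimic control, against 118, 106 and 106 CPM in high glucose. Neither gene overlapped between the controls and high glucose. Myc and the kinase Pim1 went the other way, Pim1 at 15.5, 14.6 and 14.7 CPM in the inhibitor control and 29.9, 29.9 and 30.2 CPM in the mimic control, against 6.38, 6.62 and 6.03 CPM in high glucose.

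Other ligands and receptors were as far apart. The alarmin Il33 had 8.24, 9.31 and 7.80 CPM in the inhibitor control and 3.22, 3.24 and 2.63 CPM in the mimic control, against 141, 144 and 160 CPM in high glucose. Ackr3, the scavenging receptor of Cxcl12, had 12.3, 12.8 and 10.9 CPM in the inhibitor control and 1.32, 1.27 and 1.64 CPM in the mimic control, against 32.9, 29.5 and 34.7 CPM in high glucose. The secreted phospholipase Pla2g2e was higher, at 20.5, 18.2 and 17.97 CPM in the inhibitor control and 63.9, 56.5 and 55.7 CPM in the mimic control, against 2.61, 2.22 and 2.52 CPM in high glucose. Usp18, an interferon-induced protease, had 8.83, 9.59 and 9.88 CPM in the inhibitor control and 1.70, 1.49 and 2.10 CPM in the mimic control, against 0.369, 0.231 and 0.379 CPM in high glucose. Of 14 other genes of the prostaglandin pathway tested, 4 were higher and 8 lower in the inhibitor control, and 3 higher and 9 lower in the mimic control. Of all genes, 40.1% were higher and 39.3% lower in the inhibitor control, and 39% higher and 39.9% lower in the mimic control. Transfection, culture and run cannot be told apart in these values.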
